A study of Homo sapiens with 18 samples.

Results

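The genes described here serve protein folding in the endoplasmic reticulum (ER), the compartment where secreted and membrane proteins fold, and the unfolded protein response that adjusts it. They are 34 genes taken by name from the 35616 listed in the expression table and 32 of them were among the 12005 genes tested. The choice was made with earlier results of these data known. RNA-seq was done on HUDEP-2, an immortalised human erythroid progenitor line from umbilical cord, in 6 groups of 3 libraries. The HBBko groups carry a knockout of the beta-globin gene HBB and were sampled at 3 stages, namely before differentiation (undifferentiated) and 48 h and 5 d into it. The WT groups are HUDEP-2 cells of the wild type genotype at the same stages. Both lines are one immortalised cell background, the labels do not state how many clones make up HBBko, and they do not say whether the 3 libraries of a group came from independent cultures, so p-values measure the spread between libraries, which may be technical.

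In the ER, the Hsp70-type chaperone HSPA5 (BiP) holds unfolded chains and also keeps the stress sensors silent. When unfolded protein accumulates, the sensors ERN1 (IRE1), ATF6 and EIF2AK3 (PERK) are released: ERN1 splices the XBP1 messenger into its active form, ATF6 is cleaved to a transcription factor, and EIF2AK3 slows translation and favours ATF4. The target genes encode chaperones, disulfide isomerases and the machinery of ER-associated degradation, which returns misfolded proteins to the cytosol. Erythroid progenitors lose most of their ER as they mature, and globin itself is made in the cytosol.

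Many of these genes carry in their promoters the ER stress response element, to which ATF6 binds together with the CCAAT-binding factor NF-Y. The element was first defined from the promoters of HSPA5, HSP90B1 and CALR, so its presence there is no result. A window from 250 bases before to 50 bases after each RefSeq start on GRCh38.p14 was found for 31 members (37 windows); PDIA3, DERL1 and DERL3 were not matched. Exact matches on both strands were sought to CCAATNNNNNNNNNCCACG, to its second form, in which ATTGG and CCACG stand 1 base apart, and to TGATGNAA, the C/EBP-ATF response element bound by dimers that include ATF4. The first was found in 9 of the 31 members, HSPA5, HSP90B1 and CALR among them, against 0.0916% of 27305 genes and 0.157% of 8916 tested genes. The second was found in 3 members, against 0.0696% of genes and 0.135% of tested genes. TGATGNAA was found in 1 member, HERPUD1, against 4.46% of genes and 2.36% of tested genes. The members were picked as genes of this response, so these shares describe them and are no test. The short sequence CCACG, which the first 2 motifs contain, was in 25 of the 31 members, in 42.1% of genes and in 58.6% of the tested genes with a window. The matches are shown because the genes that carry them moved in different directions in HBBko cells. Each is written 5′ to 3′ on the strand that reads as the motif, with its fixed bases in capitals.
HSPA5 (chr9:125241391-125241409): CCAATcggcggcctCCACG
HSP90B1 (chr12:103930216-103930234): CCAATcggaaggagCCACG
HSP90B1 (chr12:103930321-103930339): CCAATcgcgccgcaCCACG
CRELD2 (chr22:49918554-49918572): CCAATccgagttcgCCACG
CALR (chr19:12938384-12938402): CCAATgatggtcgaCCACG
CANX (chr5:179698778-179698796): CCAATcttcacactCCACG
PDIA6 (chr2:10812853-10812871): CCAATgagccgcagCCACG
ERO1B (chr1:236282183-236282201): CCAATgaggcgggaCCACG
XBP1 (chr22:28800603-28800621): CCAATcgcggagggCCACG
SERP1 (chr3:150546710-150546728): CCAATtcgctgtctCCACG
HYOU1 (chr11:119057274-119057284): ATTGGaCCACG
HYOU1 (chr11:119057380-119057390): ATTGGaCCACG
SDF2L1 (chr22:21642114-21642124): ATTGGtCCACG
HERPUD1 (chr16:56932025-56932035): ATTGGgCCACG
HERPUD1 (chr16:56931966-56931973): TGATGCAA
Each lies upstream of a RefSeq start of its gene, and the CANX match, which lies in the windows of 3 CANX starts, runs across 1 of them. The 250 bases before the start are shown whole for HSPA5, CALR and HERPUD1, which undifferentiated were called higher, not called and called lower in HBBko, each on the strand of the gene, with the matches above in capitals.
HSPA5 (chr9:125241344-125241593, minus strand): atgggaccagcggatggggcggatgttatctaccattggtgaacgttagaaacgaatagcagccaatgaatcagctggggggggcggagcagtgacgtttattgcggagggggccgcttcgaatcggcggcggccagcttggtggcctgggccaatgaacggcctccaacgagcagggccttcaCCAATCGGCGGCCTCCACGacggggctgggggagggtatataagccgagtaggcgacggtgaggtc
CALR (chr19:12938359-12938608, plus strand): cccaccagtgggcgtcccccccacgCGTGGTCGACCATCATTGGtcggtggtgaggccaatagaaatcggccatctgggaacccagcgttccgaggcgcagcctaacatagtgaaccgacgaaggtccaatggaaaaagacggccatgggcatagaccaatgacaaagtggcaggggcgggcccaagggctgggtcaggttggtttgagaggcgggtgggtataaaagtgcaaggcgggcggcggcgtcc
HERPUD1 (chr16:56931892-56932141, plus strand): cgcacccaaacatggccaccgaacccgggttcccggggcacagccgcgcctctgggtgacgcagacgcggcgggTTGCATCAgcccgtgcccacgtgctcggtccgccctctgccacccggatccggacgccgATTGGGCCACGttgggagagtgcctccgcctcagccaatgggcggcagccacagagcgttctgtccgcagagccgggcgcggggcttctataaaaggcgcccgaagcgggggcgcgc
HSPA5 holds 1 match 66 bases before its start. CALR holds 1 match of the same motif on the opposite strand, 225 bases before its start. HERPUD1 holds the second form 117 bases before the start and TGATGNAA on the opposite strand 176 bases before it. A match in these letters is a description, not a bound site.

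Levels are given in scaled TPM, a per-length transcript abundance that the authors scaled between libraries. The expression columns name the lines as thal and wen, which were read as HBBko and WT from the names; HBB stood at 69004 to 72650 in the 5 d libraries read as HBBko, against 427628 to 458719 in those read as WT, and was lower at every stage. All 10 erythroid markers checked were tested, whereas 1 of 8 myeloid, 1 of 7 megakaryocyte, 0 of 9 lymphoid or plasma cell and 0 of 6 stromal or endothelial markers reached the level needed for testing. The summed megakaryocyte markers were low and differed without overlap, at 1.85 ± 0.17 scaled TPM in HBBko and 4.45 ± 0.22 in WT libraries undifferentiated and at 0.908 ± 0.14 in HBBko and 0.530 ± 0.14 in WT libraries at 5 d. The alpha-, beta- and other globin genes made up 1.71% ± 0.081 of the summed signal in HBBko and 2.83% ± 0.88 in WT undifferentiated libraries (SD, n = 3 each). The share was 13.2% ± 0.38 in HBBko and 21.7% ± 2.6 in WT libraries at 48 h, and 39.4% ± 0.63 in HBBko and 51.3% ± 0.79 in WT libraries at 5 d. WT library 3 stood apart before 5 d, with a globin share of 3.84% against 2.29% and 2.36% in the other undifferentiated WT libraries, and 24.7% against 20.2% and 20.3% at 48 h. Mitochondrially encoded transcripts made up 2.63% ± 0.34 in HBBko and 1.39% ± 0.063 in WT libraries at 5 d. Of the 10 erythroid markers, 8 were lower in HBBko undifferentiated, 3 at 48 h and 2 at 5 d, with 0, 0 and 1 higher. Over all tested genes 22.3%, 9.21% and 24.8% were lower, and 20.9%, 9.52% and 26.5% higher. The summed erythroid markers were 9628 ± 594 scaled TPM in HBBko and 9306 ± 3110 in WT libraries undifferentiated. They were 85145 ± 2926 and 94546 ± 14243 at 48 h, with overlap at both stages. At 5 d they were 341890 ± 6990 in HBBko and 318713 ± 7128 in WT libraries, without overlap. These shares and markers move with the line at the same stage, and their part in the results below was not tested. In bulk RNA, fewer cells of a type and less RNA per cell cannot be told apart.

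In undifferentiated HBBko cells the members called higher were chaperones, their partners and disulfide isomerases, while those called lower were 3 degradation genes, 2 sensors or factors and the chaperones HSPA13 and DNAJB9. Of the 32 tested members, 10 were higher and 7 lower, where 43.3% of all tested genes were called (20.9% higher and 22.3% lower). The 6 higher among the 11 Hsp70 and Hsp90 chaperones and partners, and 4 of 5 tested disulfide exchange genes made up all 10. The 7 lower were near the share over all tested genes and so do not set the members apart. Among these 7 the calls of SYVN1 and OS9 were lost in a fit of only the groups compared. At 5 d the balance had turned to 7 higher and 16 lower, beside 51.3% of all tested genes called (26.5% higher and 24.8% lower). At 48 h the fewest members were called, 7 higher and 5 lower, and also the fewest of all tested genes (18.7%, with 9.52% higher and 9.21% lower). The median log2 fold change of the tested members was 0.11 undifferentiated, 0.028 at 48 h and -0.16 at 5 d, against -0.011, 0.021 and 0.016 over all tested genes. Scaling each library to an equal sum moved the median of all genes to 0.27 at 5 d and 0.14 at 48 h, and the members' split to 15 higher and 9 lower at 5 d and to 14 higher and 4 lower at 48 h; the split undifferentiated was then 11 and 6. With the globins removed before that scaling, the 48 h split was 4 higher and 6 lower.

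**Figure D1:**
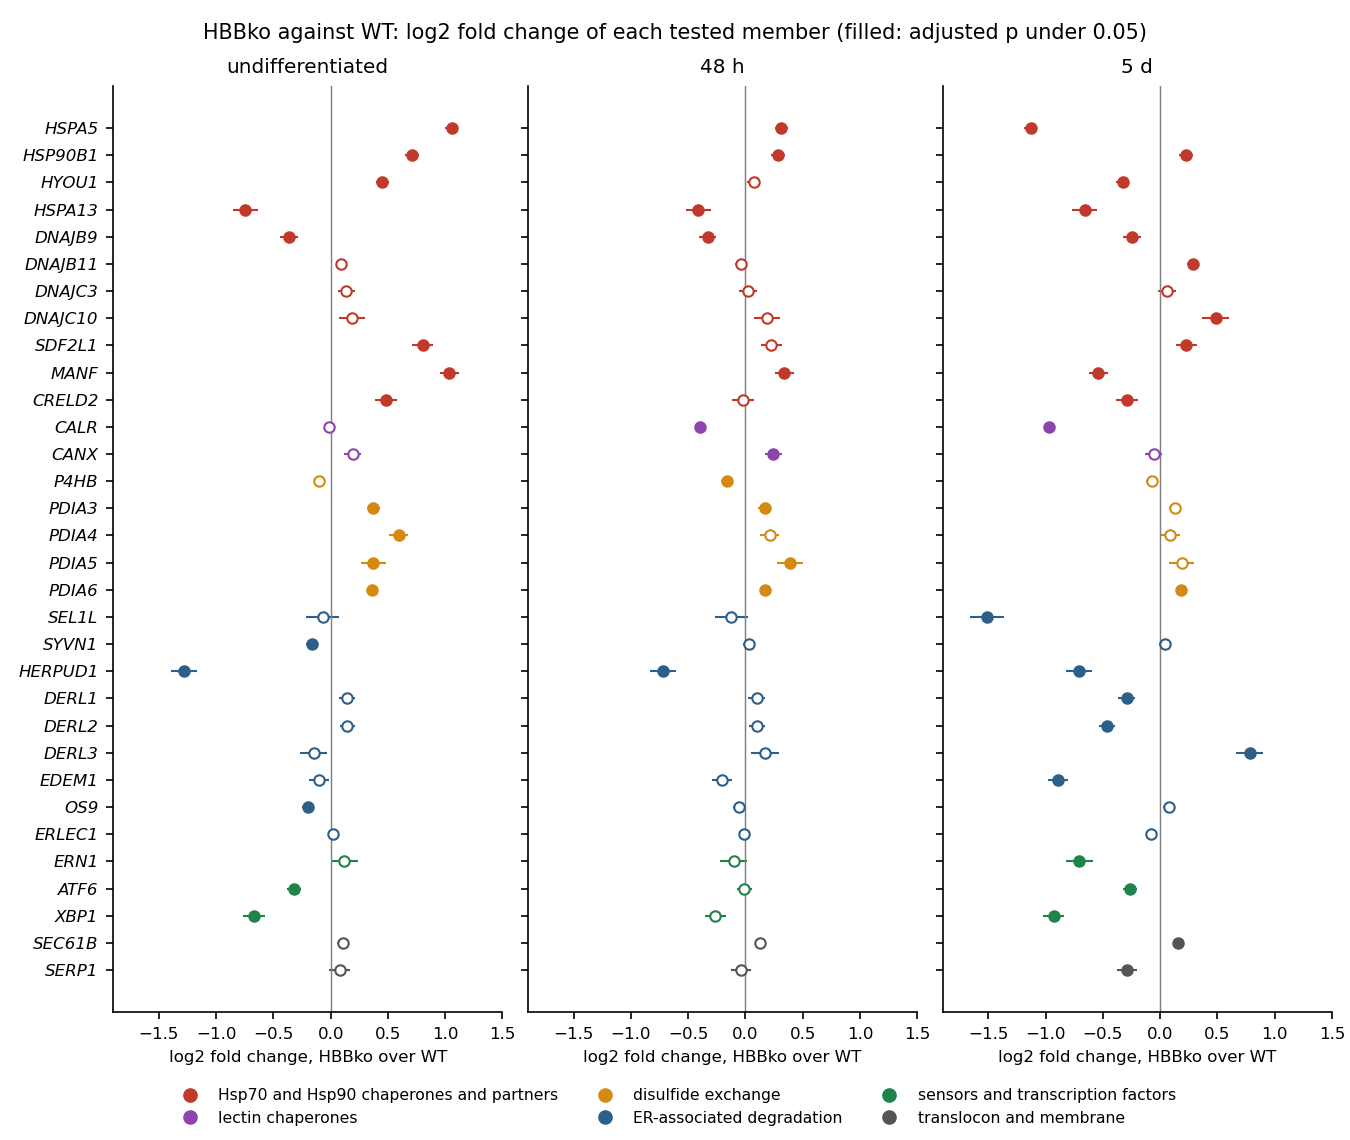
Log2 fold change of HBBko over WT (x axis, ± SE) for each of the 32 tested members (y axis, coloured by role) undifferentiated, at 48 h and at 5 d, with filled points at an adjusted p under 0.05. HSPA5 lies at 1.06 undifferentiated and at -1.13 at 5 d, HERPUD1 lies below 0 in all 3 panels, and SEL1L lies at -1.51 in the 5 d panel.

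HSPA5 itself turned round. Undifferentiated, it stood at 132, 119 and 122 scaled TPM in HBBko libraries, against 58.7, 62.0 and 57.7 in WT libraries. At 48 h it stood at 76.3, 79.0 and 76.6 scaled TPM in HBBko libraries, against 62.7, 62.8 and 60.6 in WT libraries. At 5 d it stood at 82.5, 77.7 and 69.5 scaled TPM in HBBko libraries, against 167, 162 and 176 in WT libraries. The lines did not overlap at any stage, with HBBko above WT at the first 2 stages and below WT at 5 d. The log2 fold change of HBBko over WT, here and below given ± its SE, was 1.06 ± 0.058 undifferentiated (adjusted p = 1.8e-09), 0.31 ± 0.058 at 48 h (adjusted p = 0.0013) and -1.13 ± 0.058 at 5 d (adjusted p = 2.3e-10). Between undifferentiated and 5 d cells HSPA5 fell in HBBko (-0.70 ± 0.058 on the log2 scale) and rose in WT (1.49 ± 0.058), and the difference between these courses was -2.19 ± 0.082 (adjusted p = 4.4e-11). HSPA5 made up 5.04% ± 0.20 of the members' summed level in HBBko and 2.65% ± 0.12 in WT undifferentiated libraries, and 4.47% ± 0.42 in HBBko and 7.05% ± 0.20 in WT libraries at 5 d (SD, n = 3).

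HSP90B1 (GRP94), the Hsp90 of the ER, was higher in HBBko at every stage. Undifferentiated, it stood at 182, 177 and 178 scaled TPM in HBBko libraries, against 108, 120.1 and 101 in WT libraries. The 48 h libraries had 123, 126 and 121 scaled TPM in HBBko libraries, against 103, 107 and 94.7 in WT libraries. The 5 d libraries had 75.5, 74.4 and 74.2 scaled TPM in HBBko libraries, against 65.3, 67.7 and 58.7 in WT libraries. No library of WT reached the lowest HBBko library of its stage, and HSP90B1 fell in both lines between the undifferentiated stage and 5 d. The log2 fold changes were 0.71 ± 0.062, 0.28 ± 0.062 and 0.22 ± 0.062 at the 3 stages in that order (adjusted p = 3.7e-07, 0.0049 and 0.0064). HYOU1 (GRP170), an Hsp110-type exchange factor for HSPA5, was likewise higher in HBBko undifferentiated and lower at 5 d, by less. It averaged 51.7 ± 2.5 scaled TPM in HBBko and 37.6 ± 3.1 in WT libraries undifferentiated and 45.1 ± 1.1 scaled TPM in HBBko and 56.9 ± 1.5 in WT libraries at 5 d (SD, n = 3), which gave log2 fold changes of 0.45 ± 0.055 and -0.33 ± 0.055 (adjusted p = 1.0e-05 and 1.1e-04). Under equal sums its 5 d difference was 0.0038 and no longer called.

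MANF and CRELD2, small secreted or ER-resident proteins induced by ER stress, showed the same turn. Undifferentiated, MANF stood at 45.1, 46.0 and 43.9 scaled TPM in HBBko libraries, against 23.9, 20.7 and 20.0 in WT libraries. At 48 h it stood at 19.0, 19.0 and 16.5 scaled TPM in HBBko libraries, against 13.1, 13.3 and 16.0 in WT libraries. At 5 d it stood at 10.4, 10.3 and 10.4 scaled TPM in HBBko libraries, against 14.8, 14.7 and 17.3 in WT libraries. The libraries of the lines did not overlap, HBBko being higher at the first 2 stages (1.03 ± 0.083 and 0.34 ± 0.083 on the log2 scale, adjusted p = 1.5e-07 and 0.0092) and lower at 5 d (-0.54 ± 0.083, adjusted p = 4.5e-05). CRELD2 averaged 10.2 ± 0.42 scaled TPM in HBBko and 7.06 ± 0.74 in WT libraries undifferentiated, a log2 fold change of 0.48 ± 0.097 (adjusted p = 8.2e-04). At 5 d it averaged 4.95 ± 0.48 scaled TPM in HBBko and 6.32 ± 1.1 in WT libraries (-0.29 ± 0.097, adjusted p = 0.02), a call that was lost without HBBko library 1 or WT library 3 of that stage (adjusted p up to 0.13) and with equal sums (adjusted p = 0.98). SDF2L1, a partner of the HSPA5 co-chaperones, averaged 32.9 ± 1.8 scaled TPM in HBBko and 18.5 ± 3.0 in WT libraries undifferentiated (0.80 ± 0.092, adjusted p = 5.1e-06). Its difference was 0.23 ± 0.092 at 48 h, which did not pass (adjusted p = 0.095), and 0.23 ± 0.092 at 5 d, where the call (adjusted p = 0.049) was lost when any 1 of the 6 libraries was left out (adjusted p 0.051 to 0.15) and with the replicate block (adjusted p = 0.058).

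J-domain co-chaperones hand clients to HSPA5. DNAJB9 (ERdj4) was lower in HBBko at all stages, with 3.71 ± 0.23 scaled TPM in HBBko and 5.06 ± 0.32 in WT libraries undifferentiated, 5.39 ± 0.44 scaled TPM in HBBko and 7.05 ± 0.74 in WT libraries at 48 h and 17.0 ± 0.91 scaled TPM in HBBko and 20.3 ± 0.97 in WT libraries at 5 d. Its log2 fold changes were -0.36 ± 0.078, -0.33 ± 0.078 and -0.24 ± 0.078 (adjusted p = 0.0013, 0.0071 and 0.015). The 48 h call was lost without WT library 3 (adjusted p = 0.052), the 5 d call without HBBko library 2 or WT library 1 (0.060 to 0.066), and under equal sums the 5 d difference was 0.076. HSPA13, an Hsp70-like protein of the microsomes, was lower likewise: it averaged 10.6 ± 0.63 scaled TPM in HBBko and 18.6 ± 3.2 in WT libraries undifferentiated, 7.94 ± 0.74 scaled TPM in HBBko and 10.9 ± 1.5 in WT libraries at 48 h and 41.0 ± 3.0 scaled TPM in HBBko and 65.3 ± 3.4 in WT libraries at 5 d (-0.75 ± 0.11, -0.41 ± 0.11 and -0.66 ± 0.11, adjusted p = 5.1e-05, 0.015 and 8.7e-05). Its 48 h call was lost without HBBko library 2 or 3 or WT library 3 (adjusted p 0.055 to 0.094). DNAJB11 (ERdj3) differed at 5 d alone, with 36.8 ± 0.60 scaled TPM in HBBko and 30.0 ± 1.2 in WT libraries (0.28 ± 0.047, adjusted p = 9.3e-05). DNAJC10 (ERdj5), a co-chaperone that also reduces disulfides, was higher in HBBko at 5 d, with 6.44 ± 0.27 scaled TPM in HBBko and 4.33 ± 0.59 in WT libraries (0.49 ± 0.12, adjusted p = 0.0021). DNAJC3 (p58IPK) passed the test at no stage, with differences between 0.022 ± 0.075 and 0.14 ± 0.075. Also not called were HYOU1 0.073 ± 0.055 at 48 h, CRELD2 -0.020 ± 0.097 at 48 h, DNAJB11 0.091 ± 0.047 undifferentiated, DNAJB11 -0.041 ± 0.047 at 48 h, DNAJC10 0.19 ± 0.12 undifferentiated and DNAJC10 0.19 ± 0.12 at 48 h.

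**Figure D2:**
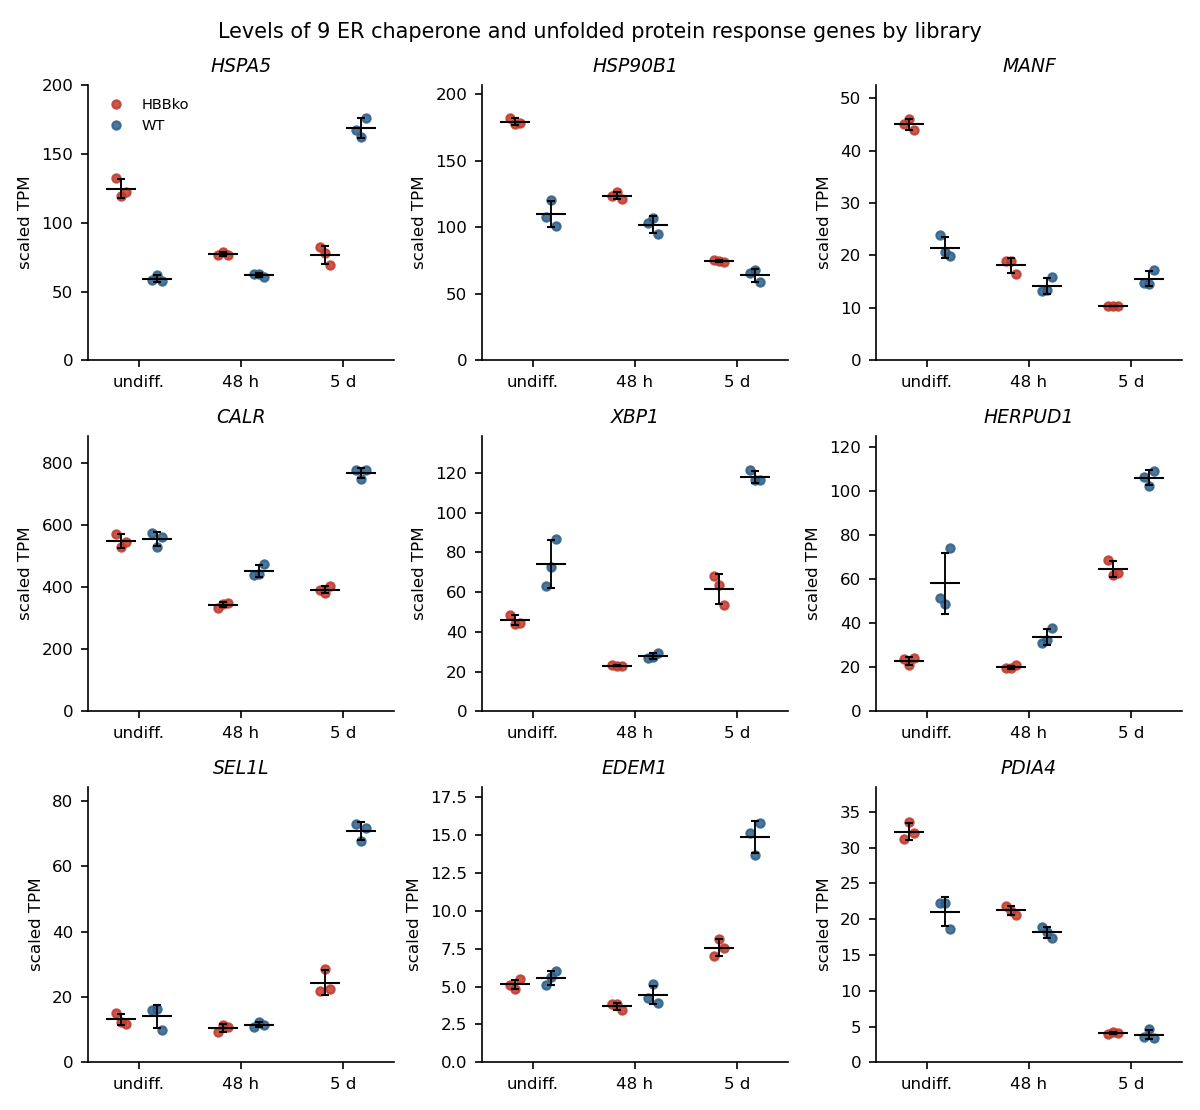
Scaled TPM (y axis, from 0) of 9 members in each library (points) by stage (x axis, undiff. for undifferentiated), HBBko in red left of WT in blue, with the mean and SD of 3 libraries in black. HSPA5 and MANF cross between the lines, with HBBko above WT undifferentiated and below WT at 5 d, and the 5 d WT libraries of SEL1L at 67.8 to 73.0 stand apart from all others.

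The lectin chaperones CALR and CANX bind monoglucosylated glycoproteins, CALR in the lumen and CANX in the membrane. CALR was the most abundant member in every group. Undifferentiated cells had 572, 529 and 546 scaled TPM in HBBko libraries, against 573, 529 and 561 in WT libraries. At 48 h the values were 334, 346 and 349.8 scaled TPM in HBBko libraries, against 437, 444 and 475 in WT libraries. At 5 d they were 389, 382 and 405 scaled TPM in HBBko libraries, against 778, 748 and 777 in WT libraries. The lines overlapped undifferentiated and stood apart afterwards, with HBBko lower. The log2 fold change was -0.014 ± 0.047 undifferentiated (adjusted p = 0.83), -0.39 ± 0.047 at 48 h (adjusted p = 2.0e-05) and -0.97 ± 0.047 at 5 d (adjusted p = 1.3e-10). From the undifferentiated stage to 5 d CALR fell in HBBko (-0.48 ± 0.047) and rose in WT (0.47 ± 0.047) in scaled TPM. These changes of CALR were not put through the other scalings. The mean library sum in WT rose over this interval from 817528 to 1475890, so the CALR share of all signal did not rise there. CANX fell with differentiation in both lines and averaged 205 ± 9.9 scaled TPM in HBBko and 173 ± 8.1 in WT libraries at 48 h. Its difference there, 0.24 ± 0.078 (adjusted p = 0.036), was lost without HBBko library 2 or 3 or WT library 1 or 3 (adjusted p 0.098 to 0.14), and at the other stages it was 0.19 ± 0.078 and -0.058 ± 0.078, neither called. With the replicate block the undifferentiated difference passed (adjusted p = 0.035).

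Disulfide exchange enzymes form and shuffle the bonds that hold secreted proteins together. Undifferentiated HBBko cells had more of PDIA3, PDIA4, PDIA5 and PDIA6 but not of P4HB (PDI), the most abundant of them at 48 h and 5 d. PDIA4 stood undifferentiated at 31.1, 33.5 and 32.0 scaled TPM in HBBko libraries, against 22.3, 22.2 and 18.7 in WT libraries, without overlap (0.59 ± 0.083, adjusted p = 3.6e-05). PDIA3 (ERp57), the partner of CALR and CANX, averaged 219 ± 3.6 scaled TPM in HBBko and 169 ± 8.7 in WT libraries (0.37 ± 0.056, adjusted p = 6.6e-05). PDIA6 averaged 97.0 ± 1.0 scaled TPM in HBBko and 75.1 ± 1.8 in WT libraries (0.36 ± 0.048, adjusted p = 2.1e-05) and stayed higher at 48 h (0.18 ± 0.048, adjusted p = 0.017) and at 5 d (0.18 ± 0.048, adjusted p = 0.0041). PDIA5 averaged 14.4 ± 1.0 scaled TPM in HBBko and 10.9 ± 0.19 in WT libraries (0.37 ± 0.11, adjusted p = 0.014), a call lost without HBBko library 1 (adjusted p = 0.053). At 48 h PDIA3 (0.17 ± 0.056), PDIA5 (0.39 ± 0.11) and P4HB (-0.16 ± 0.047, lower in HBBko) also passed with adjusted p = 0.046, 0.025 and 0.023. These 3 calls and that of PDIA6 each depended on single libraries. The PDIA3 call was lost without HBBko library 2 or 3 or WT library 1 or 3 (adjusted p up to 0.21) and with the replicate block (0.051). PDIA5 was lost without any HBBko library or WT library 3 (up to 0.16), P4HB without any library but WT library 3 (up to 0.095), and PDIA6 without HBBko library 1 or 2 or WT library 3 (up to 0.11). At 5 d PDIA4 had fallen to 4.14 ± 0.11 scaled TPM in HBBko and 3.87 ± 0.66 in WT libraries and PDIA5 to 0.436 ± 0.23 scaled TPM in HBBko and 0.253 ± 0.064 in WT libraries, and of this group PDIA6 alone was called between the lines, with 4 of 5 higher under equal sums and 2 with globins removed. The differences that did not pass were P4HB -0.10 ± 0.047 undifferentiated, PDIA4 0.21 ± 0.083 at 48 h, P4HB -0.073 ± 0.047 at 5 d, PDIA3 0.13 ± 0.056 at 5 d, PDIA4 0.088 ± 0.083 at 5 d and PDIA5 0.19 ± 0.11 at 5 d. ERO1B, an oxidase that recharges the isomerases, stayed between 0.154 and 0.667 in all 18 libraries and was not tested.

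Genes of ER-associated degradation had most calls at 5 d, with 1 higher and 5 lower of 9 in HBBko, where 51.3% of all tested genes were called and equal sums gave 4 higher and 3 lower of the 9. HERPUD1, a membrane scaffold of the degradation complex, was lower in HBBko throughout. Undifferentiated, it stood at 23.8, 21.0 and 24.2 scaled TPM in HBBko libraries, against 51.7, 48.8 and 73.9 in WT libraries. At 48 h the values were 19.8, 19.7 and 20.8 scaled TPM in HBBko libraries, against 30.8, 32.5 and 38.1 in WT libraries, and at 5 d 68.5, 62.0 and 63.0 scaled TPM in HBBko libraries, against 107, 102 and 109 in WT libraries. The lines did not overlap at any stage, and WT library 3 was the highest of its group at each stage. The log2 fold changes were -1.28 ± 0.11, -0.72 ± 0.11 and -0.71 ± 0.11 (adjusted p = 3.9e-07, 3.7e-04 and 6.4e-05), and without WT library 3 they were -1.10 undifferentiated and -0.63 at 48 h, both called. SEL1L, the adaptor of the HRD1 ubiquitin ligase, overlapped between the lines before 5 d. Undifferentiated, it stood at 15.0, 12.5 and 11.9 scaled TPM in HBBko libraries, against 16.0, 16.4 and 9.95 in WT libraries. At 48 h it stood at 9.21, 11.6 and 11.0 scaled TPM in HBBko libraries, against 10.9, 12.4 and 11.4 in WT libraries, and at 5 d at 21.9, 28.7 and 22.6 scaled TPM in HBBko libraries, against 73.0, 67.8 and 71.8 in WT libraries. The 5 d groups were far apart, with a log2 fold change of -1.51 ± 0.15 (adjusted p = 2.8e-07), against -0.070 ± 0.15 undifferentiated and -0.12 ± 0.15 at 48 h, neither called. EDEM1, a lectin that recognises trimmed glycans on misfolded proteins, had 7.01, 8.11 and 7.52 scaled TPM in HBBko libraries, against 15.1, 13.7 and 15.8 in WT libraries at 5 d (-0.89 ± 0.088, adjusted p = 3.8e-07), and its differences of -0.10 ± 0.088 and -0.21 ± 0.088 before that did not pass. Between the undifferentiated stage and 5 d SEL1L rose by 0.84 ± 0.15 on the log2 scale in HBBko and by 2.28 ± 0.15 in WT cells. EDEM1 rose by 0.48 ± 0.088 in HBBko and by 1.27 ± 0.088 in WT cells. The HBBko rises of SEL1L and EDEM1 were not put through the other scalings. The mean library sum in HBBko also rose over this interval, from 793116 to 1168030.

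The derlins, which help to pull substrates out of the membrane, split at 5 d. DERL2 averaged 23.3 ± 1.4 scaled TPM in HBBko and 32.6 ± 3.4 in WT libraries (-0.46 ± 0.068, adjusted p = 2.7e-05) and DERL1 77.6 ± 6.5 scaled TPM in HBBko and 95.3 ± 7.3 in WT libraries (-0.29 ± 0.071, adjusted p = 0.0022), both lower in HBBko. Under equal sums the DERL1 difference was 0.040 and that of DERL2 lost its call (adjusted p = 0.14). DERL3 moved the other way, with 12.1, 10.2 and 9.60 scaled TPM in HBBko libraries, against 6.10, 6.45 and 4.81 in WT libraries at 5 d, a log2 fold change of 0.78 ± 0.12 (adjusted p = 4.1e-05). SYVN1 (HRD1), the ubiquitin ligase itself, was -0.16 ± 0.053 undifferentiated (adjusted p = 0.022), a call lost without HBBko library 2 or 3 or WT library 1 (adjusted p up to 0.075), with each of 3 other scalings (0.079 to 0.13) and in a fit of only those groups (0.13). It was not called later. OS9, a glycan reader of the ligase, was lower undifferentiated, with 54.7 ± 2.9 scaled TPM in HBBko and 62.9 ± 4.1 in WT libraries (-0.20 ± 0.054, adjusted p = 0.0075). The related lectin ERLEC1 passed at no stage, with group means between 17.8 and 20.5 scaled TPM and differences of 0.023 ± 0.043, -0.012 ± 0.043 and -0.084 ± 0.043. The other degradation genes did not pass with DERL1 0.14 ± 0.071 undifferentiated, DERL1 0.10 ± 0.071 at 48 h, DERL2 0.15 ± 0.068 undifferentiated, DERL2 0.10 ± 0.068 at 48 h, DERL3 -0.15 ± 0.12 undifferentiated and DERL3 0.17 ± 0.12 at 48 h. Nor did SYVN1 0.034 ± 0.053 at 48 h, SYVN1 0.043 ± 0.053 at 5 d, OS9 -0.058 ± 0.054 at 48 h and OS9 0.078 ± 0.054 at 5 d.

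All 3 genes for sensors and transcription factors were lower in HBBko at 5 d, and 2 of them under equal sums. XBP1, whose spliced messenger encodes the active factor, stood undifferentiated at 48.6, 44.1 and 44.7 scaled TPM in HBBko libraries, against 62.9, 72.4 and 86.7 in WT libraries. At 48 h it stood at 23.5, 23.0 and 22.7 scaled TPM in HBBko libraries, against 27.0, 27.3 and 29.4 in WT libraries, and at 5 d at 68.4, 63.5 and 53.5 scaled TPM in HBBko libraries, against 121, 116 and 116 in WT libraries. The libraries of the lines did not overlap at any stage. The log2 fold change was -0.67 ± 0.094 undifferentiated (adjusted p = 3.5e-05), -0.26 ± 0.094 at 48 h, which did not pass (adjusted p = 0.06), and -0.93 ± 0.094 at 5 d (adjusted p = 4.6e-07). Without WT library 3 it was -0.55 undifferentiated (called) and -0.23 at 48 h (adjusted p = 0.21). The table holds 1 value per gene, so spliced and unspliced XBP1 were not separated. ERN1, the sensor itself, had low levels, with 1.48, 2.56 and 1.73 scaled TPM in HBBko libraries, against 3.95, 3.74 and 3.48 in WT libraries at 5 d (-0.71 ± 0.12, adjusted p = 9.2e-05). ATF6 averaged 11.7 ± 0.17 scaled TPM in HBBko and 14.9 ± 1.3 in WT libraries undifferentiated (-0.32 ± 0.063, adjusted p = 7.0e-04) and 10.2 ± 0.43 scaled TPM in HBBko and 12.4 ± 0.63 in WT libraries at 5 d (-0.26 ± 0.063, adjusted p = 0.0023), the 5 d difference becoming 0.047 under equal sums. At 48 h ATF6 and ERN1 differed by -0.0100 ± 0.063 and -0.10 ± 0.12, neither called, and undifferentiated ERN1 differed by 0.12 ± 0.12.

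Of the membrane genes, SEC61B, a subunit of the translocon through which chains enter the ER, averaged 108 ± 4.8 scaled TPM in HBBko and 96.2 ± 4.1 in WT libraries at 5 d (0.16 ± 0.051, adjusted p = 0.016). That call was lost without HBBko library 3 or WT library 1 or 2 (adjusted p 0.051 to 0.083). SERP1 (RAMP4), which stabilises membrane proteins under stress, averaged 75.6 ± 4.7 scaled TPM in HBBko and 92.5 ± 5.8 in WT libraries at 5 d (-0.29 ± 0.088, adjusted p = 0.011), lost without WT library 1 (adjusted p = 0.058) and at 0.046 under equal sums. Earlier differences were not called, with SEC61B 0.11 ± 0.051 undifferentiated, SEC61B 0.13 ± 0.051 at 48 h, SERP1 0.077 ± 0.088 undifferentiated and SERP1 -0.041 ± 0.088 at 48 h. WFS1 (wolframin), an ER membrane protein, was at or under 0.312 in every library and listed at 0 in 1 HBBko library at 5 d, and was not tested.

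Summed over the 34 members, undifferentiated libraries held 2473 ± 38.7 scaled TPM in HBBko and 2245 ± 21.8 in WT. At 48 h the sums were 1893 ± 42.3 in HBBko and 1927 ± 30.0 in WT libraries, which overlapped, and at 5 d 1715 ± 21.4 in HBBko and 2389 ± 47.9 in WT libraries (SD, n = 3). CALR alone was 22.9% ± 0.38 of that sum in HBBko and 32.1% ± 0.078 in WT libraries at 5 d, and without it the 5 d sums were 1323 ± 10.2 in HBBko and 1621 ± 31.3 in WT libraries. As a share of all signal outside the globins, the members were 0.317% ± 0.0084 in HBBko and 0.283% ± 0.013 in WT libraries undifferentiated, and 0.242% ± 0.0021 in HBBko and 0.333% ± 0.0091 in WT libraries at 5 d. Of all signal they were 0.312% ± 0.0084 in HBBko and 0.275% ± 0.015 in WT undifferentiated. That share was 0.222% ± 0.0038 and 0.205% ± 0.010 at 48 h, and 0.147% ± 0.0017 and 0.162% ± 0.0033 at 5 d, without overlap at any stage. By role, the chaperones and partners summed to 533 ± 12.6 in HBBko and 346 ± 15.9 in WT libraries undifferentiated, and to 325 ± 10.5 in HBBko and 442 ± 7.65 in WT libraries at 5 d. The disulfide exchange genes were level in scaled TPM at 5 d, at 317 ± 9.47 in HBBko and 315 ± 7.18 in WT libraries, with overlap. The library sums there averaged 1168030 in HBBko and 1475890 in WT, so as a share of all signal these genes were higher in HBBko. The degradation genes summed to 334 ± 7.21 in HBBko and 448 ± 19.8 in WT libraries at 5 d, and the sensors and factors to 73.9 ± 7.93 in HBBko and 134 ± 2.83 in WT libraries.

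**Figure D3:**
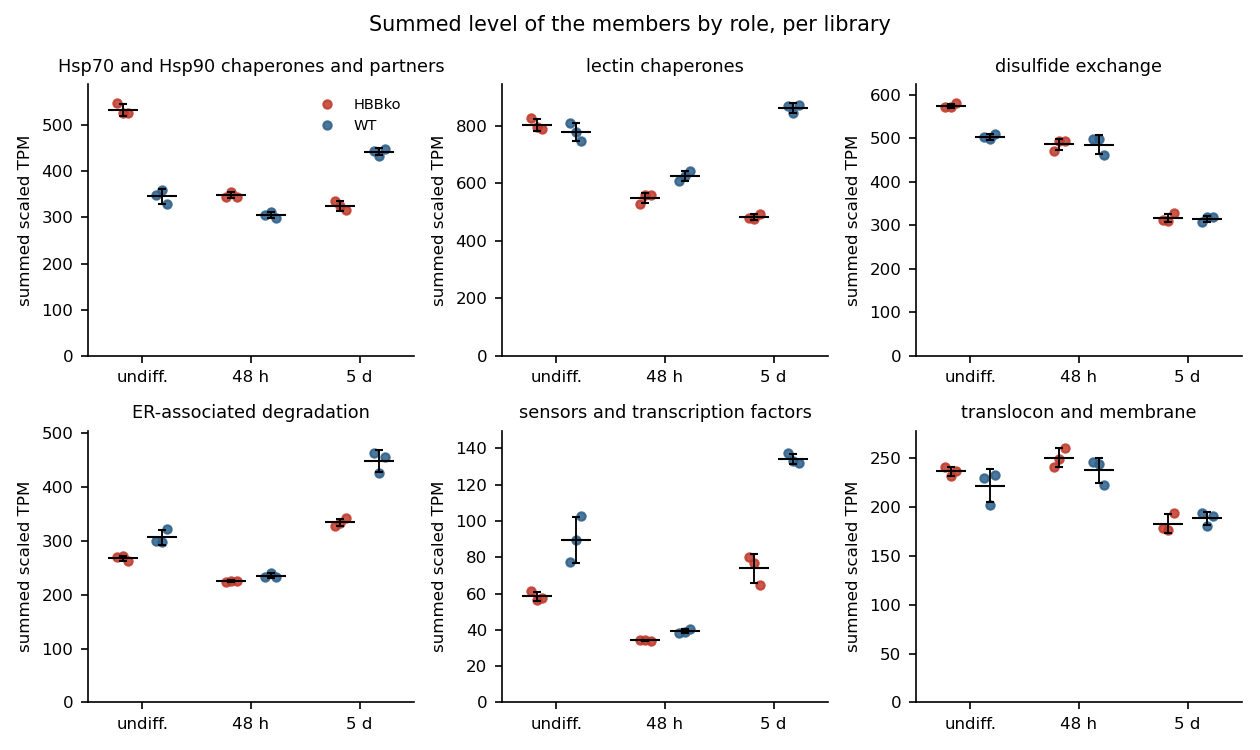
Summed scaled TPM (y axis, from 0) of the members of each of 6 roles in each library (points) by stage (x axis, undiff. for undifferentiated), HBBko in red left of WT in blue, with the mean and SD of 3 libraries in black. At 5 d HBBko lies below WT for chaperones, lectins, degradation and sensors and overlaps WT for disulfide exchange and the membrane genes.

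Within each line some members declined with differentiation and some rose late, and most of all tested genes were likewise called over these intervals. From the undifferentiated stage to 5 d, 9 members rose and 19 fell in HBBko, where 85.7% of all tested genes were called (31.4% higher and 54.4% lower). In WT 14 rose and 15 fell, where 85.8% were called (30.0% higher and 55.8% lower). The median over all tested genes was -0.33 in HBBko and -0.36 in WT for this interval, against -0.19 and -0.12 over the tested members. From the undifferentiated stage to 48 h, 3 rose and 24 fell in HBBko (65.2% of all genes called, 25.1% higher and 40.1% lower) and 4 rose and 22 fell in WT (64.9%, 23.5% higher and 41.4% lower). From 48 h to 5 d, 13 rose and 14 fell in HBBko (79.7%, 30.2% higher and 49.5% lower) and 16 rose and 13 fell in WT (80.2%, 30.8% higher and 49.5% lower). Under equal sums the splits for the whole interval were 5 higher and 24 lower in HBBko and 6 and 24 in WT, and from 48 h to 5 d they were 7 and 21 in HBBko and 12 and 19 in WT. With median-of-ratios scaling WT had 18 higher and 11 lower over the whole interval and 7 and 14 up to 48 h.

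Of the tested members PDIA5 had the largest decline in both lines. Its log2 change between the undifferentiated stage and 5 d was -3.44 ± 0.11 in HBBko and -3.25 ± 0.11 in WT. PDIA4 changed by -2.69 ± 0.083 in HBBko and -2.19 ± 0.083 in WT, and PDIA6 by -2.02 ± 0.048 in HBBko and -1.84 ± 0.048 in WT. DNAJC10 changed by -2.17 ± 0.12 in HBBko and -2.47 ± 0.12 in WT. By the test of the difference PDIA4 fell further in HBBko (-0.51 ± 0.12), a call lost under equal sums (adjusted p = 0.083). So did PDIA6 (-0.18 ± 0.068), a call lost without any 1 of 8 of the 12 libraries (adjusted p up to 0.11) and with a value of 0.093 under equal sums. The lines also differed in this course for MANF, at -2.01 ± 0.083 in HBBko and -0.44 ± 0.083 in WT, and for SDF2L1, at -1.82 ± 0.092 in HBBko and -1.24 ± 0.092 in WT. Also called with a change of at least 1 over this interval were HSP90B1, PDIA3 and CANX in HBBko and CANX, DERL3 and ERN1 in WT. In WT, DERL3 went from 22.0 ± 4.2 to 5.79 ± 0.86 scaled TPM and ERN1 from 0.766 ± 0.073 to 3.73 ± 0.24 (SD, n = 3). The late risers included HSPA13, which rose by 1.86 ± 0.11 in HBBko and 1.77 ± 0.11 in WT, and DNAJB9, which rose by 1.94 ± 0.078 in HBBko and 1.82 ± 0.078 in WT. HERPUD1 rose by 1.63 ± 0.11 in HBBko and 1.63 ± 0.11 in WT from 48 h to 5 d, and SYVN1 by 1.12 ± 0.053 in HBBko and 1.11 ± 0.053 in WT. XBP1 changed by -0.96 ± 0.094 in HBBko and -1.37 ± 0.094 in WT between the undifferentiated stage and 48 h, and then rose by 1.38 ± 0.094 in HBBko and 2.04 ± 0.094 in WT. Of the 32 tested members, 13 had their highest mean in WT at 5 d and 12 in undifferentiated HBBko cells. These means were compared on the deposited scale only, and how many of all tested genes peaked in each group was not counted. Some highest means exceeded others by less than the spread between libraries.

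**Figure D4:**
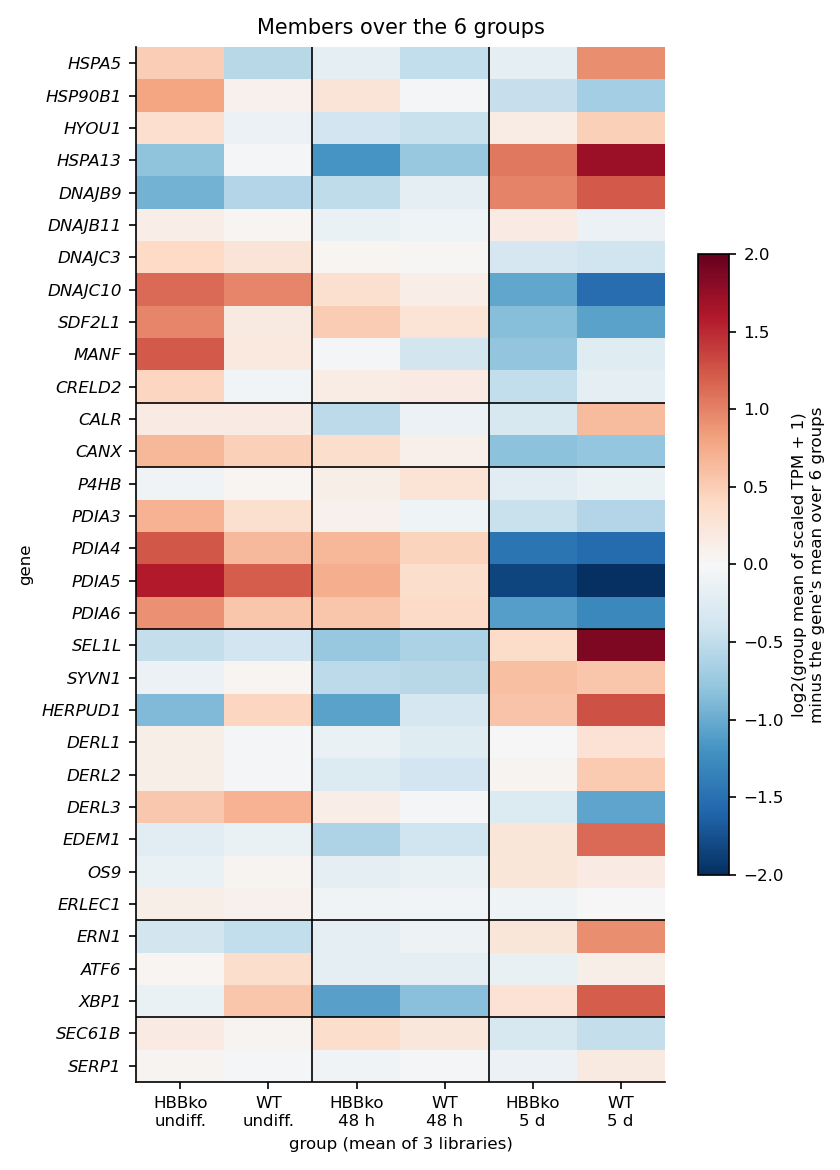
Log2(group mean + 1) of each tested member (rows, in order of role, black lines between roles) minus its mean over the 6 groups (columns, HBBko left of WT at each stage), red for higher and blue for lower. HSPA13, DNAJB9, SEL1L, HERPUD1 and XBP1 are reddest in WT at 5 d, and PDIA4, PDIA5, PDIA6 and DNAJC10 are blue at 5 d in both lines.

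The course differed between the lines for many members. The HBBko against WT difference changed between the undifferentiated stage and 5 d for 21 of the 32 tested members, 5 upward and 16 downward, where 45.0% of all tested genes were called (23.5% upward and 21.5% downward). Between the undifferentiated stage and 48 h it changed for 10 (2 upward and 8 downward, against 13.2% of all genes, 7.67% upward and 5.51% downward), and between 48 h and 5 d for 13 (2 upward and 11 downward, against 24.6%, 11.5% upward and 13.1% downward). Under equal sums the whole-interval split was 11 upward and 10 downward. HSP90B1 and PDIA6 were called higher in HBBko at all 3 stages, and HSPA13, DNAJB9 and HERPUD1 lower at all 3. HSPA5, HYOU1, MANF and CRELD2 were called higher undifferentiated and lower at 5 d, and 0 members took the opposite turn. Under equal sums HYOU1, CRELD2 and DNAJB9 were no longer called lower at 5 d. How many of all tested genes took each of these patterns was not counted, so they do not set the members apart.

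The neighbouring pathways, chosen by name with earlier results of these data known, were counted in the same fit. In it 43.3%, 18.7% and 51.3% of all tested genes were called at the 3 stages. Counts near those shares set no list apart, and because of that choice counts far from them are no independent test. Most PERK arm genes were lower in HBBko before 5 d: 1 of its 10 tested genes was higher and 8 were lower undifferentiated, 1 and 7 at 48 h, and 0 and 5 at 5 d, where equal sums gave 5 and 5. ATF4, its transcription factor, averaged 292 ± 17.7 in HBBko and 578 ± 109 in WT libraries undifferentiated (log2 fold change -0.97 ± 0.093, adjusted p = 9.7e-07) and 267 ± 0.96 in HBBko and 394 ± 24.1 in WT libraries at 48 h (-0.56 ± 0.093, adjusted p = 6.1e-04). At 5 d ATF4 averaged 731 ± 54.5 in HBBko and 732 ± 27.2 in WT libraries, a difference of -0.0043 ± 0.093 that was not called. DDIT3 (CHOP), the pro-apoptotic factor of this arm, differed by -1.13, -0.63 and -1.33 on the log2 scale at the 3 stages in order, and the pseudokinase TRIB3 by -1.72, -1.61 and -2.44, all called. EIF2AK3 (PERK) itself was not called at any stage, with 5.18 ± 0.74 in HBBko and 4.32 ± 0.58 in WT libraries undifferentiated. Of 18 ATF4 targets of amino acid metabolism and related stress, 18, 14 and 13 were lower at the 3 stages and 0 higher (under equal sums 9 lower and 3 higher at 5 d), among them CHAC1 at -3.60 undifferentiated, PSAT1 at -1.76 at 48 h and STC2 at -2.21 at 5 d. HERPUD1, DDIT3 and the ATF4 targets were lower in undifferentiated HBBko cells. Members called higher there included HSPA5, HSP90B1 and MANF, and members called lower also included XBP1, ATF6, HSPA13 and DNAJB9. Why these genes differed was not tested.

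Heat shock chaperones, mainly of the cytosol, were called higher in HBBko or not called. The list of 18 heat shock genes was also chosen with earlier results of these data known, and it holds mitochondrial chaperonins too. Of the 18, 17 were higher and 0 lower undifferentiated, 14 and 0 at 48 h, and 13 and 0 at 5 d. Equal sums, globin removal and median-of-ratios scaling gave 0 lower at each stage too. Among them the inducible HSPA1A averaged 46.0 ± 8.38 in HBBko and 20.8 ± 3.48 in WT libraries undifferentiated, and the co-chaperone BAG3 25.4 ± 2.31 in HBBko and 9.36 ± 0.54 in WT libraries at 5 d. At 5 d HSPA5 and CALR were lower in HBBko while BAG3 and CHORDC1 (0.85 ± 0.13) were higher. The Hsp70 and Hsp90 chaperones and partners of the ER called at 5 d went both ways. HSP90B1, DNAJB11, DNAJC10 and SDF2L1 were higher, and HSPA5, HYOU1, HSPA13, DNAJB9, MANF and CRELD2 lower. The other ER lists had calls in both directions, but under equal sums nearly all their calls at 5 d were higher in HBBko, as was the median of all genes. Other disulfide exchange genes and isomerases had 5 higher and 3 lower of 19 undifferentiated, 3 and 1 at 48 h, and 5 and 6 at 5 d (10 and 1 under equal sums). PRDX4, a peroxide-using oxidant of the isomerases, averaged 95.3 ± 4.38 in HBBko and 55.7 ± 2.62 in WT libraries undifferentiated, and TXNDC12 9.99 ± 1.43 in HBBko and 21.8 ± 0.51 in WT libraries at 5 d. ERO1A, the main oxidase, was not called at any stage. Other degradation genes had 4 higher and 7 lower of 18 undifferentiated, 3 and 2 at 48 h, and 7 and 3 at 5 d (15 and 1 under equal sums), with the extracting ATPase VCP at 0.39 ± 0.045 undifferentiated and SELENOS, which recruits it to derlins, at -0.66 ± 0.061 at 5 d.

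Glycan addition and trimming had 2 higher and 3 lower of 15 tested undifferentiated, 2 and 0 at 48 h, and 4 and 5 at 5 d (11 and 0 under equal sums). Translocon and signal peptidase genes had 6 higher and 1 lower of 18 undifferentiated, 2 and 2 at 48 h, and 6 and 2 at 5 d (15 and 0 under equal sums), with the channel SEC61A1 at 0.23 ± 0.042 undifferentiated and not called later. KDEL receptors and early transport had 3 higher and 2 lower of 14 undifferentiated, 1 and 0 at 48 h, and 2 and 4 at 5 d (8 and 0 under equal sums). The retrieval receptor KDELR2 was lower at 5 d (-0.35 ± 0.065). Nucleotide exchange and ATF6 processing had 2 higher and 4 lower of 9 tested undifferentiated, 0 and 0 at 48 h, and 2 and 1 at 5 d (7 and 0 under equal sums). At 48 h equal sums gave 3 to 8 higher and 0 lower in each of these 6 lists. In the last list NFYA, a subunit of the CCAAT-binding NF-Y, averaged 34.1 ± 1.56 in HBBko and 18.8 ± 2.78 in WT libraries undifferentiated, and ATF6B, the paralogue of ATF6, 66.7 ± 1.96 in HBBko and 94.4 ± 6.87 in WT libraries.

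The sequences printed above were set beside these directions. Of the 8 tested members with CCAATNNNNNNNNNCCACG in their window, 4 were higher and 1 lower undifferentiated, 4 and 1 at 48 h, and 2 and 5 at 5 d. Of the 21 tested members with a window and without that motif, 5 were higher and 6 lower undifferentiated, 2 and 4 at 48 h, and 4 and 10 at 5 d. Under equal sums CRELD2 and SERP1 with the motif, and HYOU1, DNAJB9, DERL2 and ATF6 without it, were not called lower at 5 d. At 48 h the calls of CANX and PDIA6 with it, and of PDIA5, HSPA13, DNAJB9 and P4HB without it, were lost without single libraries. Over all tested genes 20.9% were higher and 22.3% lower undifferentiated, 9.52% and 9.21% at 48 h, and 26.5% and 24.8% at 5 d. The motif did not mark 1 direction: undifferentiated, HSPA5 was higher, XBP1 lower and CALR not called, and at 5 d HSP90B1 was higher and HSPA5 lower. The 3 carriers of the second form also divided undifferentiated, HYOU1 and SDF2L1 being higher and HERPUD1, the 1 member that also carries TGATGNAA, lower.

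**Figure D5:**
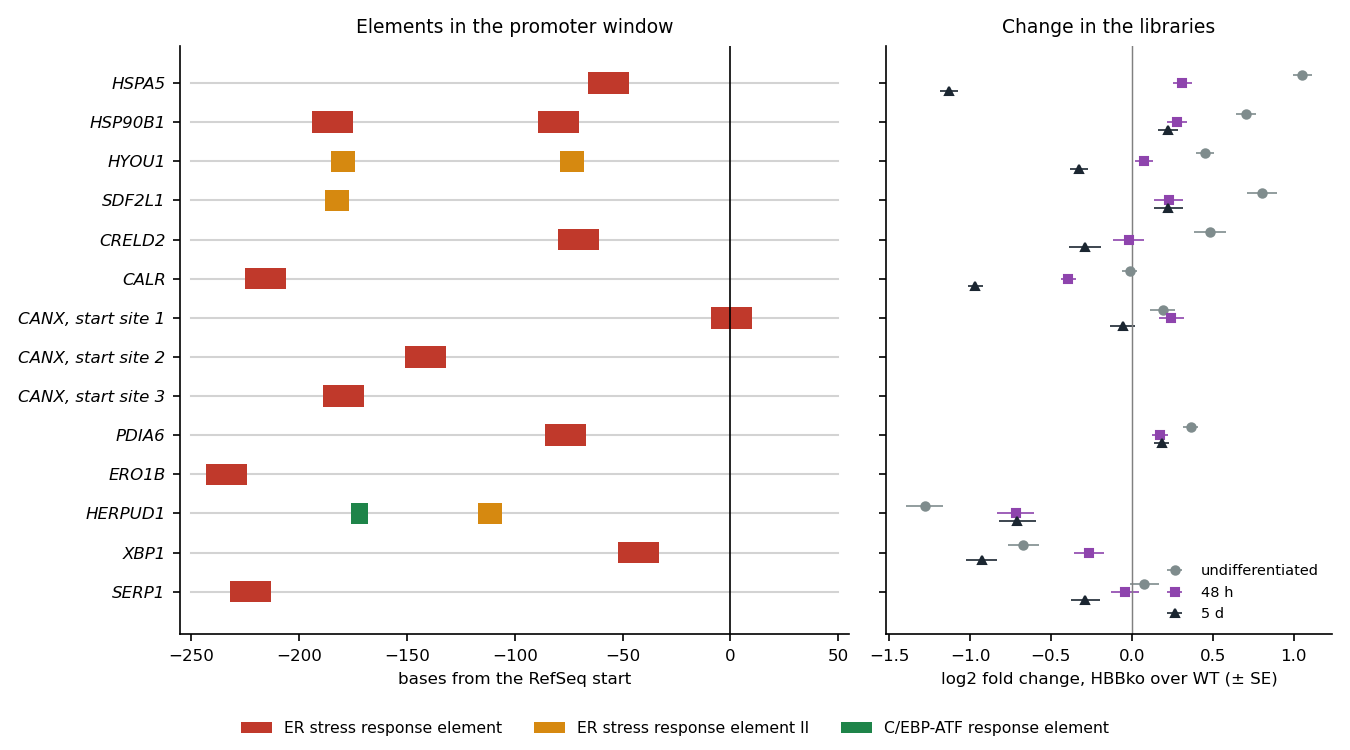
Left, position of each motif match (bars, x axis in bases from the RefSeq start, grey line for the searched window) in the members that hold one, with CANX drawn for 3 of its starts; right, log2 fold change of HBBko over WT (± SE) of the same genes at the 3 stages. Genes with the same kind of element lie on both sides of 0, and ERO1B was not tested.

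The authors' deposited tables, 1 for each stage, call 10 of the 32 tested members higher and 4 lower undifferentiated, 10 and 6 at 48 h, and 6 and 15 at 5 d at a q under 0.05. Their headers give no direction, and HBB, lower in HBBko, is negative in them at each stage. In the authors' deposited table HSPA5 is at 1.06 ± 0.088 undifferentiated, 0.31 ± 0.032 at 48 h and -1.14 ± 0.079 at 5 d (SE). None of the members was called in opposite directions. The undifferentiated calls of DNAJB9, SYVN1 and OS9, the 48 h call of PDIA3 and the 5 d calls of SDF2L1 and CRELD2 were made in the fit across all groups and not in the authors' deposited tables. At 48 h the authors' deposited table also calls DNAJC10, SDF2L1, PDIA4, XBP1 and SEC61B, and ERO1B, not tested in the fit, at 1.03 ± 0.33 (q = 0.00806). ERO1B averaged 0.429 ± 0.11 scaled TPM in HBBko and 0.205 ± 0.049 in WT libraries at 48 h, without overlap. Listed pseudogene copies of PDIA3, ERLEC1 and XBP1 were at or under 1.95 scaled TPM in every library, while the lowest library of each parent gene was at 17.3 or more.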

How the data were processed

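RNA-seq of 18 HUDEP-2 libraries (6 groups of 3) was analysed from 1 table of gene values. Per the submitters' processing notes, kallisto, sleuth and hg38 were used, with versions not given in the sources used here. The deposited signal is scaled TPM, a per-length transcript abundance that the authors scaled between libraries, so library sums differ (783213 to 1508340). The authors' deposited comparison tables hold log2 fold changes (as read from the values), p-values and q-values per gene, copied and not recomputed. Depth is unknown, since no counts were used, and strand handling is not given, so overlapping and antisense genes cannot be told apart.

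The 12005 genes that reached 1 scaled TPM in 3 or more libraries were tested on log2(value + 1) with limma 3.58.1 in R 4.3.3, using 1 fit over all 6 groups with 12 residual degrees of freedom, moderated variances with a trend, and Benjamini-Hochberg adjustment over all tested genes. Every adjusted p of the text is from this fit unless the authors' deposited table is named. Fold changes on this scale understate those of low genes. A call is an adjusted p under 0.05. Plain TPM had been assumed when the test was chosen, and the same test was kept. In simulated data for the undifferentiated comparison of 12005 genes, 80 of 100 genes changed by 0.5 and 98 of 100 changed by 1 on the log2 scale were recovered. No other genes were changed, while 43.3% were called in the data. The simulation used each gene's spread averaged over the 6 groups. Undifferentiated WT libraries 2 and 3 had library weights of only 0.256 and 0.143, so recovery at that stage's own spread was not tested. The members and gene lists were chosen with earlier results of these data known, and 4 list genes were matched under an older symbol. Every member is described. Changes within a line are named for members called with a log2 change of at least 1 in either line, not always with the value or for every interval. CALR was added after its values were seen. A gene of another list is named where it had 1 of the 2 largest called changes of its list at a stage, and ATF4, DDIT3, EIF2AK3, ERO1A, SEC61A1 and KDELR2 are named whatever their values.

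Alternatives were other scalings, pseudocounts and filters, library weights, a fit of only the groups compared, leaving out each library, and a replicate block. Same-numbered HBBko and WT libraries deviated together undifferentiated (correlations of 0.173, 0.121 and 0.151) and at 5 d (0.133, 0.180 and 0.131), but not at 48 h (-0.0301, -0.0111 and 0.0219). The pairing comes from the numbers in the sample names.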

Additional observations from a re-analysis of the deposited data

Results flagged for a closer look

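Each gene here had an HBBko against WT difference that changed between stages, by the test of the change itself at an adjusted p under 0.05. Values are the later log2 difference minus the earlier one, so a negative value means that HBBko moved down relative to WT.

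Between the undifferentiated stage and 48 h the downward values were HSPA5 -0.74, HSP90B1 -0.43, HYOU1 -0.38, SDF2L1 -0.58, MANF -0.69, CRELD2 -0.50, CALR -0.38 and PDIA4 -0.38. HERPUD1 at 0.56 and ATF6 at 0.31 moved up. Single libraries ended 4 of these calls. Any 1 of 8 of the 12 libraries left out did so for ATF6 (adjusted p up to 0.08), 3 for CRELD2 (0.062), 7 for HERPUD1 (0.078) and 10 for PDIA4 (0.096). Equal sums ended those of HSP90B1 (0.071), HYOU1 (0.051) and PDIA4 (0.17).

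Between the undifferentiated stage and 5 d the downward values were HSPA5 -2.19, HSP90B1 -0.48, HYOU1 -0.78, SDF2L1 -0.58, MANF -1.58, CRELD2 -0.77, CALR -0.95, PDIA3 -0.24, PDIA4 -0.51, PDIA6 -0.18, SEL1L -1.44, DERL1 -0.44, DERL2 -0.61, EDEM1 -0.79, ERN1 -0.83 and SERP1 -0.37. HSPA5 had the largest of them, ahead of the secreted factor MANF and the degradation adaptor SEL1L. The upward values were DNAJB11 0.19, SYVN1 0.20, HERPUD1 0.57, DERL3 0.93 and OS9 0.28. Single libraries ended the calls of DNAJB11 (4 of 12 libraries, adjusted p up to 0.063), PDIA6 (8, up to 0.11), SERP1 (4, up to 0.065) and SYVN1 (6, up to 0.10). Under equal sums the values of PDIA3 and PDIA6 were 0.045 and 0.093, against the downward values above, and the calls of HSP90B1 (adjusted p = 0.19), PDIA4 (0.083), DERL1 (0.33) and SERP1 (0.65) were lost.

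Between 48 h and 5 d the downward values were HSPA5 -1.44, HYOU1 -0.40, MANF -0.88, CALR -0.57, SEL1L -1.39, DERL1 -0.39, DERL2 -0.56, EDEM1 -0.68, ERN1 -0.60, ATF6 -0.25 and XBP1 -0.67. The upward values were DNAJB11 0.32 and DERL3 0.61. The ATF6 call was lost when any 1 of 11 of the 12 libraries was left out (adjusted p up to 0.11). Equal sums ended the calls of HYOU1 (0.11), DERL1 (0.24), ERN1 (0.092) and ATF6 (0.64). The globin share of the signal differed between the lines at each stage, and its part in these values was not tested.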

How the results depend on the processing

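Over single members and alternatives, 3121 values kept their direction and side of the threshold, 162 lost their call, 43 gained one and 35 changed direction. Equal library sums turned, at 48 h, DNAJB11 0.10, CRELD2 0.11, SEL1L 0.0074, OS9 0.081, ERLEC1 0.12, ATF6 0.12, SERP1 0.10, and at 5 d, HYOU1 0.0038, DNAJB9 0.076, CANX 0.28, P4HB 0.26, DERL1 0.040, ERLEC1 0.23, ATF6 0.047, SERP1 0.046, each from below to above 0; of these HYOU1, DNAJB9, DERL1, ATF6 and SERP1 had been called at 5 d. It also turned the change between the undifferentiated stage and 5 d of PDIA3 (0.045) and PDIA6 (0.093). Undifferentiated CALR, not called, was 0.028 under equal sums, 0.011 with globins removed and 0.020 with median-of-ratios scaling, and DNAJC3 at 48 h was -0.00123 with library weights. Leaving out 1 library moved 9 uncalled differences across 0: undifferentiated CALR lay between -0.047 and 0.012, SEL1L between -0.29 and 0.046 and SERP1 between -0.020 and 0.14; at 48 h DNAJC3 lay between -0.013 and 0.071, CRELD2 between -0.049 and 0.019, ERLEC1 between -0.038 and 0.0070, ATF6 between -0.031 and 0.013 and SERP1 between -0.11 and 0.051; at 5 d SYVN1 lay between -0.00322 and 0.079. Beside losses given above, between the lines the calls of PDIA5 (pseudocount 0.1, undifferentiated and 48 h), OS9 (fit of only those groups, undifferentiated), CANX, PDIA3 and PDIA5 (no filter or globins removed, 48 h), P4HB (equal sums, 48 h), PDIA3 (median-of-ratios and only those groups, 48 h), SDF2L1 (pseudocount 5, no filter and median-of-ratios, 5 d), CRELD2 (only those groups, 5 d) and SEC61B (median-of-ratios, 5 d) were lost. The cause was not tested. Leaving out 1 library gave 16 to 20 called members undifferentiated, 6 to 11 at 48 h and 19 to 22 at 5 d; the 48 h count was 6 without HBBko library 2, 7 without HBBko library 3 and 6 without WT library 3. The changes between the undifferentiated stage and 48 h numbered 6 to 13, with 6 without undifferentiated HBBko library 2. At 48 h a fit of only those groups called 10 higher and 6 lower, and library weights 11 and 7. With the replicate block, which uses the pairing of library numbers, 18, 11 and 22 members were called at the 3 stages, against 17, 12 and 23; beside the calls of CANX, PDIA3 and SDF2L1 given above, it moved no count by over 1.5 times. Low genes such as ERN1 and DERL3 are limited by an unknown depth.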
